A study of Homo sapiens with 12 samples.

Results

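Day 16 P-IWP2 cells were compared with Day 16 NP-IWP2 cells, using 4 of the 12 RNA-seq libraries of the series, which were picked by labelled treatment and day alone: P-IWP2 replicates 5 and 6 and NP-IWP2 replicates 1 and 2. All cultures came from H1, an established human embryonic stem cell line with a WT genotype. They were driven to mesendoderm, the transient progenitor of heart, vessel, liver and gut lineages, with a WNT activator, and then received IWP2, which blocks the Porcupine enzyme that WNT ligands need for secretion. P-IWP2 cells were in addition detached with EDTA and replated in new coated wells on Day 2, whereas NP-IWP2 cells stayed in their original wells (static culture). The comparison addresses what passaging changed in cells that had all received the WNT inhibitor. Detachment, the new surface, the split of the culture and any supplement of the replating medium were given together and cannot be told apart here. The P-DF libraries, from cells passaged on Day 2 and grown in DF medium without IWP2, and the Day 12 libraries of both treatments were used only where named. H1 is a single line, and nothing states that replicates were separate differentiations, so the p-values measure the spread between these libraries, which may be technical.

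Cardiomyocytes contract through sarcomeres, in which thick filaments of myosin pull on thin filaments of actin, tropomyosin and troponin that are anchored at Z-discs. As ventricular cells mature they take up the light chain MYL2 and the heavy chain MYH7, build calcium stores in the sarcoplasmic reticulum and add mitochondria, while pacemaker genes recede. Mesendoderm can also give rise to liver-like endoderm and to the fibroblast, epicardial and endothelial cells of the heart, so a culture steered towards the heart is often a mixture. In RNA from a whole culture, fewer cells of a type and less RNA per cell cannot be told apart.

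The 4 libraries held between 16073679 and 19176239 counts. By principal components of the 6 Day 16 libraries, 74.8% of the variance lay on the first axis, with both NP-IWP2 libraries at one end (scores of -105 and -113) and the P-IWP2 (53.8 and 55.0) and P-DF libraries (53.3 and 56.4) together at the other. The labels call the cell type embryonic stem cells, but the pluripotency genes POU5F1, NANOG and SOX2 were too low to be tested, whereas the cardiomyocyte markers TNNT2, MYL7, ACTN2 and NKX2-5 were abundant in all 4 libraries. The cells are therefore referred to by treatment only. P-IWP2 replicate 6 stood apart from replicate 5 in several contractile and stress genes (5.46 against 56.1 on the second axis, which carried 11.0% of the variance), and NP-IWP2 replicate 1 exceeded replicate 2 in the same genes, so both values are given throughout, in the order replicate 1 and 2 and replicate 5 and 6.

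Of 19505 genes tested, 1395 were higher (7.15%) and 1941 were lower (9.95%) in P-IWP2 than in NP-IWP2 cells (edgeR quasi-likelihood test on all 12 libraries, Benjamini-Hochberg adjusted p below 0.05). Of these, 577 were at least 2-fold higher and 1464 at least 2-fold lower, so that large falls outnumbered large rises. This model shares 1 estimate of the spread among all groups, so it depends on Day 12 libraries too, and the 2 P-IWP2 libraries of Day 12 disagreed with each other. The SD of the log2 ratio between them was 1.13, against 0.191 to 0.369 in the other 5 pairs, and 74.9% of their genes differed beyond counting error, against 24.0% to 54.7%. For example, TBX18 was at 106 and 0.08 FPKM and COL3A1 at 457 and 10.4 FPKM in replicate 5 and 6 of that group. Without P-IWP2 replicate 5 of Day 12 it called 3333 higher and 3769 lower genes, and without replicate 6 of that group 3320 and 3780. Without NP-IWP2 replicate 1 or 2 of Day 12, 848 or 855 genes were higher. With the 6 Day 16 libraries alone, 2755 genes were higher (14.1%) and 3410 were lower (17.5%), among them 3324 of the 3336 genes called by the 12-library model, in the same direction. Counts from the 6-library model are therefore given beside those of the 12-library model. Leaving out 1 of the 4 compared libraries lowered the calls, to 510 higher and 936 lower without NP-IWP2 replicate 1, 216 and 699 without replicate 2, 775 and 916 without P-IWP2 replicate 5 and 391 and 680 without replicate 6, and a call that stood whichever of the 4 was left out is described below as held. Fold changes are on the log2 scale after TMM normalization. The levels in FPKM (fragments scaled by exon length and by the total count of the library) use total counts, and with that scaling the median of all genes fell to -0.31 from -0.03, so a ratio of FPKM lies below the fitted fold change.

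More sarcomere genes rose than fell. Of 14 thick filament genes, 4 rose and 2 fell (11 and 2 in the 6-library model), with a median log2 fold change of 1.16 against -0.03 for all genes. MYL2, the regulatory light chain of ventricular myosin, was at 38.6 and 4.52 FPKM in the NP-IWP2 libraries and at 1147 and 1121 FPKM in the P-IWP2 libraries. It was the largest rise among genes that reached a mean of 10 FPKM in P-IWP2 cells and whose groups did not overlap (5.95 log2, SE 1.23, edgeR adjusted p = 0.0126), and the static libraries, although far apart, both lay far below the passaged ones. MYL7, the light chain that early and atrial cardiomyocytes use, rose from 1836 and 1573 to 5313 and 5369 FPKM (1.92 log2, SE 0.318, edgeR adjusted p = 0.00515), the largest gain in FPKM of any protein-coding gene called. The heavy chains went in opposite directions. MYH6, the fast alpha heavy chain, fell from 436 and 417 to 91.3 and 146 FPKM (-1.56 log2, SE 0.453, edgeR adjusted p = 0.0447). MYH7, the slow beta heavy chain of the ventricle, was at 695 and 351 FPKM in NP-IWP2 and 2637 and 2318 FPKM in P-IWP2 libraries, with no overlap, and its difference of 2.50 log2 passed the test in the 6-library model (0.000151) but not in the 12-library model (edgeR adjusted p = 0.105). These genes are near-identical neighbours, so reads could have been split between them in counting. MYBPC3 (myosin-binding protein C, 1.48 log2) and the spring protein TTN (1.33 log2) rose, and MYOM2, an M-band protein of adult muscle, fell from 1.75 and 1.41 to 0.13 and 0.11 FPKM (-3.46 log2, SE 0.574, edgeR adjusted p = 0.00516). Without NP-IWP2 replicate 2 the call of MYL7 was lost (1.76 log2), and without that library or P-IWP2 replicate 6 that of MYL2 was lost (5.10 and 5.90 log2), while MYL2 stood at 8.30 without NP-IWP2 replicate 1. The call of MYOM2 was lost without P-IWP2 replicate 6 (-3.43), and those of MYH6 (-2.01 to -1.21), MYBPC3 (1.33 to 1.65) and TTN (1.28 to 1.38) were lost without any 1 of the 4 libraries.

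**Figure D1:**
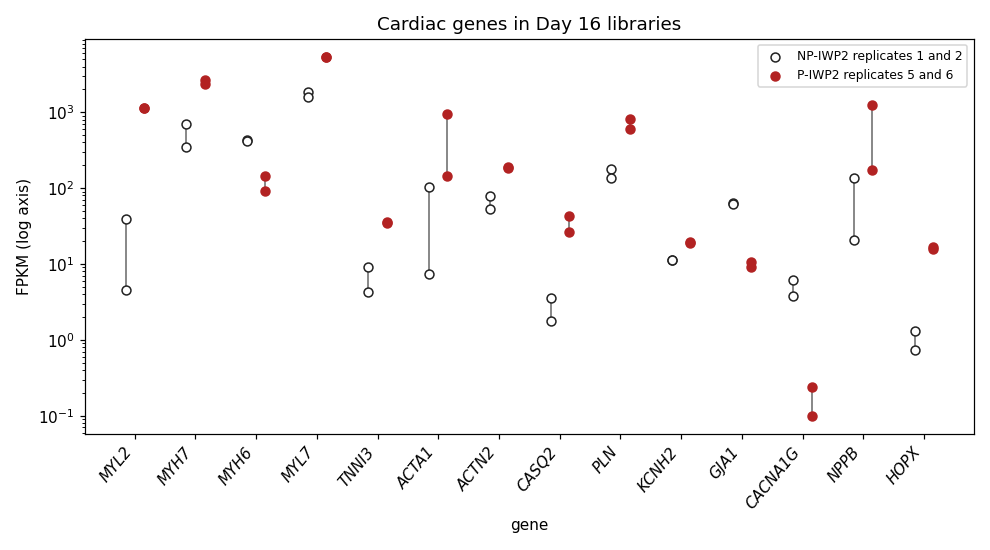
FPKM (log axis) of 14 cardiac genes in each Day 16 library. Open circles are the NP-IWP2 replicates, filled circles the P-IWP2 replicates, and bars join the lowest and highest value of a group. MYL2, TNNI3, CASQ2 and HOPX lie far higher in the P-IWP2 libraries, whereas MYH6, CACNA1G and GJA1 lie lower, and ACTA1 and NPPB spread widely between replicates.

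Of 13 thin filament genes, 3 rose and none fell (11 and 0 in the 6-library model, median 1.15). TNNI3, the adult cardiac inhibitory troponin, rose from 9.15 and 4.31 to 35.9 and 35.1 FPKM (2.65 log2, SE 0.377, edgeR adjusted p = 0.00275), a call that held. Its fetal counterpart TNNI1 remained the more abundant isoform on the per-length scale of FPKM, which presumes short reads, at 158 and 144 FPKM in NP-IWP2 and 221 and 216 FPKM in P-IWP2 libraries. LMOD3, a leiomodin that nucleates actin, rose (3.11 log2, SE 0.648, edgeR adjusted p = 0.0129) and so did tropomyosin TPM1 (0.96 log2). The calls of TPM1 (0.70 to 1.17) and LMOD3 were lost in leave-outs, that of LMOD3 without NP-IWP2 replicate 2 (2.55) or P-IWP2 replicate 5 (2.71). The muscle actin ACTA1 was at 103 and 7.39 FPKM in NP-IWP2 and 142 and 941 FPKM in P-IWP2 libraries, and the cardiac actin ACTC1 at 4104 and 1807 and 4104 and 7794 FPKM. For ACTC1 the treatments overlapped, and for ACTA1 P-IWP2 replicate 5 lay close to NP-IWP2 replicate 1; neither passed in the 12-library model (edgeR adjusted p = 0.102 and 0.145). The non-muscle actins moved the other way: ACTB fell from 472 and 474 to 131 and 185 FPKM (-1.29 log2, SE 0.252, edgeR adjusted p = 0.00984) and ACTG1 from 392 and 409 to 61.9 and 72.1 FPKM (-2.30 log2, SE 0.414, edgeR adjusted p = 0.00722). Both belong to families with many processed copies, where read assignment is uncertain. The call of ACTG1 was lost without P-IWP2 replicate 5 (-2.14) and that of ACTB stood only without P-IWP2 replicate 6 (-1.63; -1.63 to -1.02 over the leave-outs).

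Of 18 Z-disc and stretch-sensing genes, 10 rose and none fell (16 and 0 in the 6-library model), with a median of 1.70. CMYA5, a desmin-associated protein, rose from 17.6 and 14.1 to 41.2 and 32.2 FPKM (1.48 log2, SE 0.225, edgeR adjusted p = 0.00361), and MYPN (myopalladin) from 1.26 and 1.75 to 5.14 and 4.81 FPKM (2.01 log2); both calls held. Alpha-actinin ACTN2, which cross-links actin at the Z-disc, rose from 78.8 and 53 to 184 and 192 FPKM (1.78 log2, edgeR adjusted p = 0.0171), the intermediate filament DES from 87.2 and 82 to 216 and 343 FPKM (2.01 log2, edgeR adjusted p = 0.0115) and its chaperone CRYAB from 42.9 and 18.7 to 110.3 and 157 FPKM (2.38 log2, edgeR adjusted p = 0.00856). In all 3, both P-IWP2 libraries exceeded both NP-IWP2 libraries. CSRP3 (muscle LIM protein) rose by 3.03 log2, and its values were 142 and 28.1 FPKM in NP-IWP2 and 453 and 712 FPKM in P-IWP2 libraries, with the larger ratio between replicates in the static cells. The small heat shock proteins HSPB6 (7.87 and 2.56 to 33.5 and 31.2 FPKM, 2.87 log2, held) and HSPB1 (355 and 199.7 to 655 and 914 FPKM, 1.77 log2) and the actin-binding protein ABRA of striated muscle (1.16 and 0.54 to 13.9 and 20.1 FPKM, 4.58 log2) rose as well, outside the lists. Leaving out NP-IWP2 replicate 2 or P-IWP2 replicate 6 ended the calls of CRYAB (1.87 and 2.04), HSPB1 (1.38 and 1.44), ACTN2, CSRP3, DES and ABRA. The last 4 lost theirs in further leave-outs too: ACTN2 without P-IWP2 replicate 5 (1.48 to 2.16), CSRP3 without P-IWP2 replicate 5 (2.27 to 4.72, the highest without NP-IWP2 replicate 1), and DES (1.57 to 2.35) and ABRA (4.11 to 5.31) without NP-IWP2 replicate 1.

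Stretches just before the start of sarcomere genes are shown for MYL7, MYBPC3 and MYOZ2, which were called higher in the 12-library model (MYOZ2 at 1.91 log2, lost without any 1 of the 4 libraries), and for ACTC1, ACTA1 and XIRP1, which were not called in it, because they carry the sites of muscle regulators: the CArG box bound by serum response factor, and the site of the MEF2 factors. Capitals mark the site; sequences are from RefSeq (GRCh38.p14), read 5′ to 3′ on the strand of the gene at the first listed start.
MYL7 (chr7:44141364-44141413, minus strand, CArG box from -61 to -52): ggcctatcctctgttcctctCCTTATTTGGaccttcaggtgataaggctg
ACTC1 (chr15:34795629-34795678, minus strand, CArG box from -109 to -100): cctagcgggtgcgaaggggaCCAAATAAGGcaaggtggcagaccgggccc
ACTA1 (chr1:229434162-229434211, minus strand, CArG box from -97 to -88): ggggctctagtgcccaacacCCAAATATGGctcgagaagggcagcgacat
MYBPC3 (chr11:47352767-47352816, minus strand, MEF2 site from -94 to -85): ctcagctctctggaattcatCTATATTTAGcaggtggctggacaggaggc
MYOZ2 (chr4:119135760-119135809, plus strand, MEF2 site from -52 to -43): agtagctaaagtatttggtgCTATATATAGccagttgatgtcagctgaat
XIRP1 (chr3:39192677-39192726, minus strand, MEF2 site from -111 to -102): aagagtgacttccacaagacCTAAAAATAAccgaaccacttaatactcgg
Of the 45 thick filament, thin filament and Z-disc genes, 33 matched the table. In the 250 bases before the start, on either strand, 6 of these held a CArG box (18.2%, against 1.14% of the 27305 promoters in the table) and 8 held a MEF2 site (24.2% against 2.9%). None of the 16 hepatic secreted protein genes that matched held either site. With shares of 1.14% and 2.9% over all promoters, 16 genes are too few to show a lack of sites. No match of one motif overlapped a match of another in these genes. SRF, the CArG binding factor, was at 48.3 and 45.9 FPKM in NP-IWP2 and 33.4 and 44 FPKM in P-IWP2 libraries, and MEF2A at 55.1 and 51.6 and 67.2 and 65.7 FPKM, neither of them called, whereas MYOCD, the co-activator that SRF recruits in cardiac and smooth muscle, rose from 29.6 and 26 to 38.4 and 39.8 FPKM (0.77 log2, SE 0.162, edgeR adjusted p = 0.0137, lost without NP-IWP2 replicate 2, at 0.63, or P-IWP2 replicate 6, at 0.68).

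Of 16 calcium-handling genes, 5 rose and 1 fell (13 and 1 in the 6-library model, median 1.00). CASQ2, the cardiac calcium store protein of the sarcoplasmic reticulum, rose from 3.59 and 1.78 to 26.7 and 42.3 FPKM (3.95 log2, SE 0.394, edgeR adjusted p = 0.000477), and CASQ1, the skeletal form, from 5.15 and 2.91 to 17.6 and 23 FPKM (2.60 log2, edgeR adjusted p = 0.00321). The kinase CAMK2D, which phosphorylates the calcium cycle proteins, rose from 24.4 and 21.5 to 42.2 and 43.5 FPKM (1.18 log2, edgeR adjusted p = 0.00228). These 3 calls held. Phospholamban PLN, the brake on the calcium pump, rose from 177 and 135 to 822 and 605 FPKM (2.46 log2, edgeR adjusted p = 0.0489) and the pump ATP2A2 by a smaller margin, from 71.8 and 74 to 95.5 and 90.0 FPKM (0.62 log2). Sarcolipin SLN, the atrial relative of PLN, was nearly lost: its 16.4 and 12.1 FPKM in NP-IWP2 libraries fell to 0 and 0.12 FPKM, with 2 counts in the P-IWP2 libraries together, a ratio of 201-fold (95% interval of counting error 55.3 to 1665). PLN (2.22 to 2.73), ATP2A2 (0.59 to 0.66) and SLN (-10.76 to -6.54) lost their calls without any 1 of the 4 libraries. RYR2, the calcium release channel, was not called (22 and 26.3 and 34.7 and 21.2 FPKM).

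Channel genes moved both ways. Of 14 sodium and potassium channel and connexin genes, 5 rose and 3 fell (8 and 3, median 0.59). The repolarizing potassium channel KCNH2 rose from 11.3 and 11.2 to 19 and 19.5 FPKM (1.05 log2, SE 0.155, edgeR adjusted p = 0.00321), and its call held. The gap junction gene GJA1 (connexin 43) fell from 64.6 and 62.2 to 10.7 and 9.23 FPKM (-2.40 log2, SE 0.419, edgeR adjusted p = 0.00641), although GJA1 is also made by fibroblast, epicardial and epithelial cells. Of 12 pacemaker genes, none rose and 4 fell (3 and 7 in the 6-library model, median -1.07). The T-type calcium channel CACNA1G fell from 3.75 and 6.12 to 0.24 and 0.1 FPKM (-4.61 log2, SE 0.813, edgeR adjusted p = 0.00667) and the L-type channel CACNA1D, which fires the sinus node, from 2.77 and 3.77 to 0.64 and 0.38 FPKM (-2.40 log2, SE 0.251, edgeR adjusted p = 0.0006, held). HCN4, the main pacemaker channel, fell less, from 43.1 and 46 to 20.3 and 21.5 FPKM (-0.81 log2, edgeR adjusted p = 0.0461). SHOX2, the sinus node transcription factor, was at 2.34 and 4.06 FPKM in NP-IWP2 and at 0.02 and 0 FPKM in P-IWP2 libraries, where both libraries together had 2 counts, and it passed in the 6-library model (2.63e-06) but not in the 12-library model (edgeR adjusted p = 0.107). The calls of GJA1 (-2.35) and CACNA1G (-4.15) were lost without P-IWP2 replicate 6, and that of HCN4 without any 1 library (-0.92 to -0.71).

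Of 16 core and ventricular transcription factors of the heart, 1 rose (MYOCD, above) and 1 fell (3 and 4 in the 6-library model, median -0.11), shares near the 7.15% and 9.95% of all genes. TBX5, a factor of the first heart field, fell from 25 and 27.7 to 9.45 and 5.87 FPKM (-1.52 log2, SE 0.3, edgeR adjusted p = 0.0107), lost without NP-IWP2 replicate 2 (-1.50) or P-IWP2 replicate 6 (-1.26). NKX2-5 was at 88.7 and 92.6 FPKM in NP-IWP2 and 117 and 115 FPKM in P-IWP2 libraries, and GATA4 at 84.7 and 93.4 and 83.2 and 83.2 FPKM, and neither was called. HOPX, a homeodomain-only protein of maturing cardiomyocytes, rose from 1.3 and 0.73 to 15.8 and 16.9 FPKM (4.27 log2, SE 0.353, edgeR adjusted p = 0.000244, held). Among 11 atrial genes, 4 rose and 2 fell (5 and 4, median 0.20, which became -0.09 when scaled by total counts), so the list moved both ways. The rises included MYL7 and PAM, the enzyme that amidates peptides in atrial granules (83.1 and 58.9 to 155 and 156 FPKM, 1.40 log2, edgeR adjusted p = 0.00401, held). The falls included SLN, described above, which went from 459 counts in both NP-IWP2 libraries together to 2. Of 10 natriuretic peptide and stress genes, 2 rose and 2 fell (5 and 4, median 0.52). The atrial peptide NPPA rose from 59 and 21.1 to 239 and 465 FPKM (3.40 log2, edgeR adjusted p = 0.0188), and NPPB was at 136 and 20.9 and 172 and 1238 FPKM, so that the P-IWP2 libraries differed more from each other than replicate 5 did from NP-IWP2 replicate 1. The receptor of both peptides, NPR1, fell from 5.56 and 5.14 to 0.04 and 0 FPKM (-7.59 log2, edgeR adjusted p = 0.00998). NPPA lost its call without NP-IWP2 replicate 2 (2.82) or P-IWP2 replicate 6 (2.77), and NPR1 without P-IWP2 replicate 5 (-11.79) or 6 (-6.65).

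Smooth muscle markers shared with early cardiomyocytes varied between replicates. Their summed level was 709.7 and 436 FPKM in NP-IWP2 and 561 and 1275 FPKM in P-IWP2 libraries, so replicate 5 lay within the static range. Of 12 genes, 4 rose and none fell (6 and 1 in the 6-library model, median 0.70, or -0.09 without P-IWP2 replicate 6). CNN1 (calponin) rose from 111 and 31.8 to 207 and 439.5 FPKM (2.45 log2, edgeR adjusted p = 0.0218), while ACTA2, the vascular actin, was at 219 and 131 FPKM in NP-IWP2 and 28.7 and 207 FPKM in P-IWP2 libraries and was not called (edgeR adjusted p = 0.83). CNN1 lost its call without NP-IWP2 replicate 2 (1.79) or P-IWP2 replicate 6 (1.72).

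**Figure D2:**
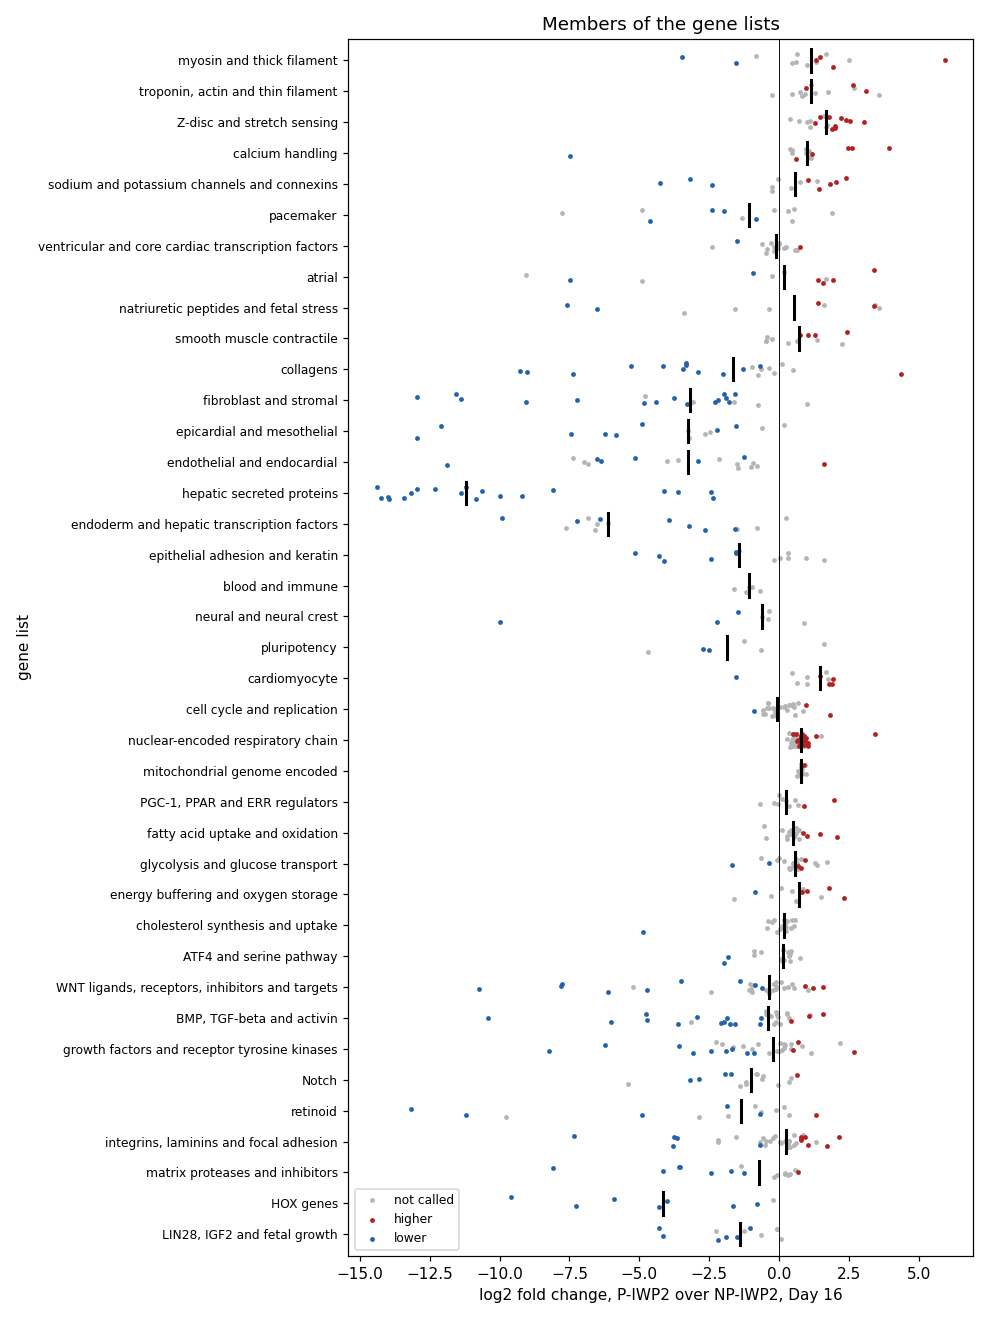
Log2 fold change (P-IWP2 over NP-IWP2, Day 16) of every tested member of 39 gene lists. Each point is a gene, red where called higher, blue where called lower and grey where not called (edgeR, 12 libraries), and the black tick is the median of the list. Sarcomere, Z-disc and mitochondrial lists lie to the right of 0, and hepatic, endoderm, epicardial, endothelial, fibroblast and collagen lists to the left.

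Of 78 nuclear-encoded subunits of the respiratory chain, 35 rose and none fell (75 and 0 in the 6-library model, median 0.77, or 0.49 by total counts). Of the 13 subunits encoded by the mitochondrial genome 1 rose (13 in the 6-library model, median 0.81, or 0.53 by total counts). For these 13 the share in the 12-library model was near the 7.15% of all genes that rose. In the 6-library model it was above their 14.1%. MT-ATP8, a subunit of the ATP synthase, rose from 3638 and 3266 to 4982 and 5694 FPKM (0.91 log2, SE 0.257, edgeR adjusted p = 0.0406), and NDUFA1 of complex I rose from 136 and 108 to 187 and 220.1 FPKM (1.01 log2, edgeR adjusted p = 0.016). Mitochondrial transcripts took 10.4% and 9.64% of counts in NP-IWP2 and 14.9% and 13.5% in P-IWP2 libraries. Of the 35 calls of nuclear-encoded subunits, 1 (UQCRQ of complex III) held. The others were all lost without NP-IWP2 replicate 2. Most of them were also lost without NP-IWP2 replicate 1, without P-IWP2 replicate 5 and without P-IWP2 replicate 6. Each leave-out leaves 1 library in a group. The median of the nuclear-encoded list was 0.88 and 0.64 without NP-IWP2 replicate 1 and 2, and 0.84 and 0.66 without P-IWP2 replicate 5 and 6. MT-ATP8 was lost without any 1 of the 4 (0.74 to 1.06), and NDUFA1 without NP-IWP2 replicate 2 (0.80) or P-IWP2 replicate 6 (0.82). Among 11 regulators, ESRRA, an orphan receptor that drives oxidative genes, rose from 9.21 and 9.99 to 15.3 and 14.4 FPKM (0.91 log2, edgeR adjusted p = 0.00333, held), and TFAM, which packages and transcribes mitochondrial DNA, was at 10.6 and 11.3 and 9.77 and 8.07 FPKM and was not called. ESRRB was the other riser of the list (5 and 0 in the 6-library model, median 0.26, or -0.02 by total counts).

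Of 20 genes of fatty acid use, 4 rose and none fell (14 and 1 in the 6-library model, median 0.51, or 0.23 by total counts), led by FABP3, the heart fatty acid carrier (79.2 and 57.9 to 219.7 and 253 FPKM, 2.06 log2, edgeR adjusted p = 0.00722, lost without NP-IWP2 replicate 2, at 1.80). Of 24 genes of glycolysis and glucose uptake, 3 rose and 2 fell (16 and 3, median 0.58, or 0.30 by total counts). Over all genes 7.15% rose and 9.95% fell. The basal glucose transporter SLC2A1 fell from 24.7 and 19.9 to 4.37 and 6.96 FPKM (-1.69 log2, SE 0.311, edgeR adjusted p = 0.00786, held), while the insulin-responsive transporter of muscle, SLC2A4, was at 2.73 and 3.1 FPKM in NP-IWP2 and 10.9 and 5.27 FPKM in P-IWP2 libraries (edgeR adjusted p = 0.0577, and 0.000389 in the 6-library model). A further transporter, SLC2A12, rose from 0.79 and 0.93 to 6.4 and 5.38 FPKM (3.05 log2, SE 0.183, edgeR adjusted p = 5.08e-05, held). Of 12 energy-buffering genes, 4 rose and 1 fell (8 and 2, median 0.70, or 0.43 by total counts), among them the mitochondrial creatine kinase CKMT2 (6.19 and 5.83 to 27.9 and 22.4 FPKM, 2.33 log2) and PPP1R3C, which targets a phosphatase to glycogen (64.5 and 60.5 to 195 and 165 FPKM, 1.80 log2). The call of CKMT2 was lost without any 1 library (2.23 to 2.44), as was that of PPP1R3C. Of 18 cholesterol synthesis genes none rose (3 in the 6-library model, median 0.19, or -0.10 by total counts), and ATF4 pathway genes showed 2 falls of 15, TRIB3 and PCK2 (1 and 4, median 0.14, or -0.15 by total counts).

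Liver-type transcripts had the lowest median of the 39 lists. All 19 tested hepatic secreted protein genes fell, in both models, with a fitted median of -11.19, or -9.73 where the 8 genes at 0 counts in both P-IWP2 libraries were set to the bound that 3 counts over those libraries allow. AFP, the fetal plasma protein, was at 465 and 381 FPKM in the NP-IWP2 libraries and at 0.02 and 0.07 FPKM in the P-IWP2 libraries (-12.96 log2, SE 0.811, edgeR adjusted p = 5.89e-05). Both static libraries carried it among their abundant transcripts, and both passaged libraries had almost none. APOA4, an apolipoprotein of the gut and fetal liver, was at 121 and 99 FPKM in NP-IWP2 libraries and had no count in either P-IWP2 library, at least 1676-fold lower. FGA and FGB, the fibrinogen chains, were at 29.8 and 31.1 and at 29.4 and 27.6 FPKM in NP-IWP2 libraries and had no count in P-IWP2 libraries, at least 1222-fold and at least 1283-fold lower. The retinol carrier RBP4 (51.9 and 44.2 FPKM) was at least 725-fold lower and APOA2 (95.2 and 78.2 FPKM) at least 848-fold lower. APOB, the scaffold of lipoproteins, fell from 27775 counts in both NP-IWP2 libraries together to 1 count, and ALB (albumin) from 843 counts to 1. APOA1 kept the highest level, 20.0 and 16.1 FPKM in P-IWP2 against 129.7 and 103 FPKM in NP-IWP2 libraries (-2.42 log2, SE 0.208, edgeR adjusted p = 0.000297). Outside the list, the detoxification genes GSTA1 and GSTA2, close paralogs that can share reads, also had no count in P-IWP2 libraries, at least 208-fold and at least 324-fold lower. The calls of the 11 liver genes named here held.

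Of 15 endoderm and hepatic transcription factors, none rose and 7 fell (0 and 12 in the 6-library model, fitted median -6.11, or -2.81 with the 8 genes at 0 set to their bounds). HNF4A, the central regulator of hepatocyte genes, was at 0.71 and 0.73 FPKM in NP-IWP2 libraries and had no count in P-IWP2 libraries, at least 74.8-fold lower. CEBPA, a partner factor, fell from 3.47 and 2.77 to 0.45 and 0.12 FPKM (-3.21 log2, edgeR adjusted p = 0.00859, lost without P-IWP2 replicate 6, at -2.59). PROX1, which liver and heart share, was at 13.3 and 16.6 and 17.5 and 11.9 FPKM and was not called. Of 13 epithelial genes, 6 fell and none rose (2 higher and 7 lower in the 6-library model, median -1.44): CDH1, the cadherin of epithelia, fell from 4.88 and 3.96 to 0.06 and 0.14 FPKM (-5.16 log2, SE 0.746, edgeR adjusted p = 0.00296, held), but the keratins KRT8 (129.6 and 105 and 91.2 and 147 FPKM) and KRT18 (158 and 121 and 115 and 173 FPKM), which early cardiomyocytes also make, overlapped between treatments and were not called.

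**Figure D3:**
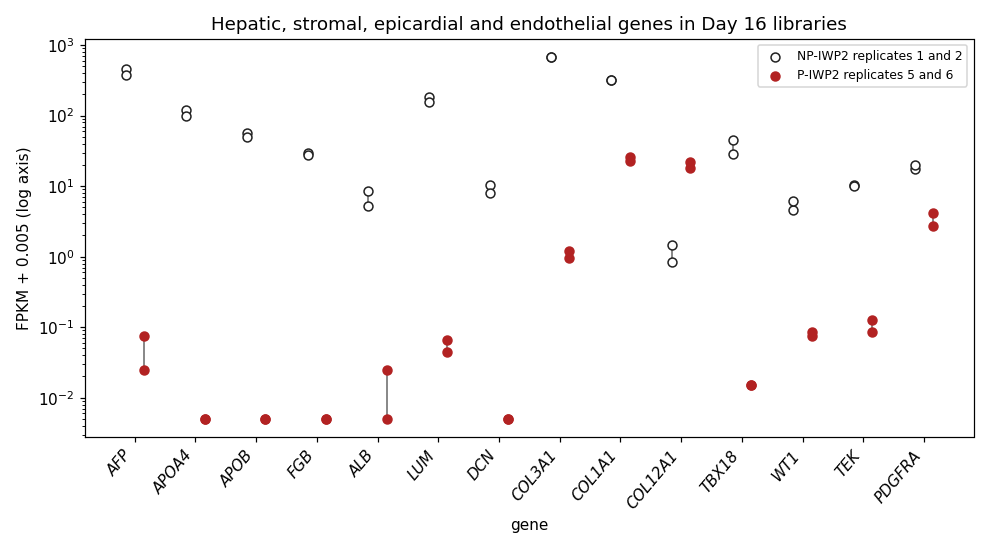
FPKM (log axis, with 0.005 added so that values of 0 can be drawn) of 14 hepatic, stromal, epicardial and endothelial genes in each Day 16 library. Open circles are the NP-IWP2 replicates and filled circles the P-IWP2 replicates. In 13 of the genes both P-IWP2 libraries lie below both NP-IWP2 libraries, and COL12A1 lies above them.

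Of 20 fibroblast and stromal genes, none rose and 15 fell (0 and 19 in the 6-library model, median -3.18). The proteoglycan LUM (lumican) was at 183 and 157 FPKM in NP-IWP2 and 0.06 and 0.04 FPKM in P-IWP2 libraries (-11.39 log2, SE 0.356, edgeR adjusted p = 1.42e-06), the smallest adjusted p named here. DCN (decorin) fell from 4246 counts in both NP-IWP2 libraries together to 1 count, and BGN (biglycan), which was not on the list, at 14.8 and 14.8 FPKM in NP-IWP2 libraries, had no count in P-IWP2 libraries, at least 364-fold lower. Fibronectin FN1 fell from 160.5 and 156 to 30.1 and 36 FPKM (-1.98 log2, SE 0.255, edgeR adjusted p = 0.00172). These 4 calls held. PDGFRB, the receptor of mural and stromal cells, fell from 21.1 and 22.1 to 0.61 and 0.63 FPKM (-4.84 log2, edgeR adjusted p = 0.0077) and PDGFRA from 17.6 and 20.2 to 4.22 and 2.74 FPKM (-2.17 log2, edgeR adjusted p = 0.0288). PDGFRB lost its call without P-IWP2 replicate 5 (-4.76) or 6 (-4.92), and PDGFRA without any 1 library (-2.44 to -1.94). Vimentin VIM, which most cultured cells express, was at 247 and 262 and 125 and 123 FPKM, without overlap, and missed the threshold in the 12-library model (edgeR adjusted p = 0.0625).

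Among 20 collagen genes, 12 fell and 1 rose (14 and 2 in the 6-library model, median -1.66). COL3A1, a fibrillar collagen of loose connective tissue, was at 679 and 670.1 FPKM in NP-IWP2 and 0.94 and 1.18 FPKM in P-IWP2 libraries (-9.03 log2, SE 1.52, edgeR adjusted p = 0.00544), the largest loss in FPKM of any protein-coding gene called. COL1A2 fell from 169 and 182 to 7.28 and 8.85 FPKM (-4.16 log2, edgeR adjusted p = 0.00411, held) and COL1A1 from 324 and 322 to 23 and 25.6 FPKM (-3.45 log2, edgeR adjusted p = 0.023). COL6A3 was at 7.81 and 7.37 and 0.01 and 0.01 FPKM (-9.25 log2, held). The basement membrane chains COL4A1 (105 and 80.5 and 55.5 and 62.6 FPKM) and COL18A1 (134 and 136 and 165 and 151 FPKM) were not called. COL12A1, a collagen that decorates fibrils in stretched tissue, was the only gene of the list called higher in the 12-library model. It rose from 1.48 and 0.83 to 18 and 22.1 FPKM (4.38 log2, SE 0.443, edgeR adjusted p = 0.000506, held). COL2A1, outside the list, the cartilage collagen that embryonic heart and notochord also make, rose from 231 and 215 to 627 and 645 FPKM (1.79 log2, SE 0.336, edgeR adjusted p = 0.00861). COL3A1 lost its call without P-IWP2 replicate 6 (-9.27), COL2A1 without that library (1.71) or NP-IWP2 replicate 2 (1.68), and COL1A1 without any 1 library (-3.59 to -3.32).

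Epicardial and endothelial genes fell as well. Of 14 epicardial and mesothelial genes, none rose and 8 fell (0 and 13 in the 6-library model, median -3.24, which was -5.94 without P-IWP2 replicate 6 and -2.67 without replicate 5). TBX18, a factor of the proepicardium, was at 28.7 and 44.8 FPKM in NP-IWP2 and 0.01 and 0.01 FPKM in P-IWP2 libraries (-12.08 log2, edgeR adjusted p = 0.0237), and TCF21, at 12.1 and 21.1 FPKM in NP-IWP2 libraries, had no count in P-IWP2 libraries, at least 611-fold lower (edgeR adjusted p = 0.0303). BNC1, a mesothelial factor, fell from 20.7 and 24 to 0.34 and 0.16 FPKM (-6.22 log2, SE 0.939, edgeR adjusted p = 0.00351, held), and WT1 from 4.62 and 6.14 to 0.07 and 0.08 FPKM (-5.85 log2, edgeR adjusted p = 0.0398). The calls of TBX18 (-12.33 to -11.79), TCF21 (-13.26 to -12.57) and WT1 (-6.06 to -5.66) were lost without any 1 library. Of 18 endothelial and endocardial genes, 1 rose and 6 fell (1 and 12, fitted median -3.24, or -2.51 with 5 genes at 0 set to their bounds). The defining genes PECAM1 (0.2 and 0.11 FPKM) and CDH5 (0.14 and 0.29 FPKM) were low in NP-IWP2 libraries already, whereas the angiopoietin receptor TEK fell from 10.3 and 10.1 to 0.08 and 0.12 FPKM (-6.36 log2, edgeR adjusted p = 0.00739, lost without P-IWP2 replicate 5, at -6.06, or 6, at -6.74). MCAM, an adhesion molecule that cardiomyocytes express too, was the one that rose (8.81 and 5.99 to 15.2 and 22.1 FPKM, 1.61 log2, edgeR adjusted p = 0.00328, held). The 14 blood and immune markers summed to 3.21 and 2.46 FPKM in NP-IWP2 and 1.22 and 0.78 FPKM in P-IWP2 libraries, and of the 5 tested none was called (0 and 1 in the 6-library model).

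In each signalling list more genes fell than rose, which was also the case over all genes. Of all genes 9.95% fell and 7.15% rose (17.5% and 14.1% in the 6-library model). In these lists the shares that rose were near that. The shares that fell were larger: 9 of 35 WNT, 13 of 32 BMP, TGF-beta and activin, and 9 of 32 growth factor genes. Of 35 WNT pathway genes, 3 rose and 9 fell (4 and 16 in the 6-library model, median -0.36). The secreted inhibitors DKK1 (28.8 and 38.2 to 0.17 and 0.07 FPKM, -7.80 log2, SE 0.955, edgeR adjusted p = 0.00132) and FRZB (96.6 and 74.9 to 2.68 and 2.65 FPKM, -4.74 log2, SE 0.292, edgeR adjusted p = 5.59e-05) fell and held. SFRP5, a further decoy of WNT ligands, fell from 36.5 and 56.6 to 0.5 and 0.58 FPKM (-6.13 log2), while SFRP1, the most abundant of them, was at 99.2 and 115 and 104 and 83.2 FPKM and was not called. The receptor FZD2 (24.9 and 20.0 to 47 and 40.5 FPKM, 1.23 log2) and the divergent family member DKK3 (9.8 and 9.97 to 24.5 and 24.3 FPKM, 1.58 log2) rose. The target gene LEF1 fell (11.8 and 14.8 to 4.65 and 3.7 FPKM, -1.39 log2), but AXIN2, the usual readout of the canonical pathway, was at 2.33 and 3.23 and 2.22 and 1.98 FPKM and was not called. FZD2 (1.03) and DKK3 (1.54) lost their calls without NP-IWP2 replicate 2, and SFRP5 (-6.36 to -5.84) and LEF1 (-1.50 to -1.28) without NP-IWP2 replicate 2, P-IWP2 replicate 5 or P-IWP2 replicate 6.

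Of 32 BMP, TGF-beta and activin genes, 3 rose and 13 fell (4 and 16, median -0.40). The ligand BMP4 fell from 23 and 23.5 to 0.7 and 0.76 FPKM (-4.72 log2, edgeR adjusted p = 0.0107), the co-receptor TGFBR3 from 13.5 and 14.4 to 0.43 and 0.42 FPKM (-4.76 log2, SE 0.197, edgeR adjusted p = 9.69e-06) and the receptor TGFBR1 from 22.8 and 24 to 6.41 and 6.49 FPKM (-1.58 log2, edgeR adjusted p = 0.00214). The BMP target genes ID1 (99.1 and 117 to 25.8 and 17.3 FPKM, -2.06 log2), ID3 (104 and 139 to 27.5 and 26.8 FPKM, -1.88 log2) and ID4 (63.5 and 84.6 to 9.11 and 6.88 FPKM, -2.93 log2), inhibitors of helix-loop-helix factors, fell, with edgeR adjusted p of 0.000521, 0.000453 and 0.000346. ID2, their relative, was at 98.2 and 110.2 and 89.7 and 74.9 FPKM and was not called. The calls of TGFBR1, TGFBR3 and the 3 ID genes held, and that of BMP4 was lost without P-IWP2 replicate 5 (-4.60) or 6 (-4.84). Outside the list LEFTY2, a Nodal antagonist, rose from 3.55 and 0.71 to 23.8 and 16.9 FPKM (3.48 log2, SE 0.587, edgeR adjusted p = 0.00557, held).

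Of 32 growth factor genes, 3 rose and 9 fell (6 and 15, median -0.22). FGF1 rose from 3.86 and 1.95 to 17.8 and 13.5 FPKM (2.68 log2, edgeR adjusted p = 0.0399, lost without any 1 library, 2.24 to 3.33), while IGFBP3, a carrier of insulin-like growth factors, fell from 90.2 and 87.7 to 7.86 and 9.53 FPKM (-3.07 log2, SE 0.467, edgeR adjusted p = 0.00358, held). HGF, a stromal factor, fell from 5.83 and 6.81 to 0.02 and 0.01 FPKM (-8.24 log2). IGF2, abundant in fetal mesenchyme and liver, was at 342 and 316 FPKM in NP-IWP2 and 53.8 and 60.5 FPKM in P-IWP2 libraries and passed in the 6-library model (2.8e-06) but not in the 12-library model (edgeR adjusted p = 0.096). Of 12 genes of the LIN28, IGF2 and fetal growth list, none rose and 6 fell (0 and 9, median -1.38): the imprinted RNA H19 fell from 17.6 and 13.2 to 0.57 and 0.86 FPKM (-4.15 log2), MEST from 72.5 and 71 to 20.0 and 21.3 FPKM (-1.52 log2) and the RNA-binding protein LIN28B from 6.77 and 7.16 to 1.42 and 1.62 FPKM (-1.91 log2), and these 3 calls held. HGF lost its call without NP-IWP2 replicate 2, P-IWP2 replicate 5 or P-IWP2 replicate 6 (-8.79 to -7.86).

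Among HOX, retinoid and Notch genes more fell than rose. In each of these lists the share that fell was above the 9.95% of all genes, of which 7.15% rose. Of the 39 HOX genes, 8 of the HOXB cluster were expressed highly enough to be tested and 7 of them fell in both models (median -4.15, or -3.80 with 2 genes at 0 set to their bounds, and -4.75 fitted without P-IWP2 replicate 5). HOXB2, at the anterior end, was at 8.19 and 7.32 and 6.49 and 4.65 FPKM and was the one not called, HOXB4 fell from 9.32 and 7.74 to 2.43 and 2.06 FPKM (-1.66 log2) and HOXB6 had no count in P-IWP2 libraries against 2.5 and 1.98 FPKM, at least 60.4-fold lower (held). HOXB4 lost its call without any 1 library (-1.84 to -1.46). Of 14 retinoid genes, 1 rose and 5 fell (1 and 9, median -1.36). The falls were not all separate from the lists above, since RBP4 was also counted with the hepatic secreted protein genes and ALDH1A2 with the epicardial genes. ALDH1A2, the retinoic acid synthase of mesoderm, fell from 0.46 and 0.8 to 0.01 and 0.03 FPKM (-4.90 log2, edgeR adjusted p = 0.00233). The receptor RARB rose from 0.49 and 0.53 to 1.04 and 1.05 FPKM (1.32 log2, edgeR adjusted p = 0.00324), and both calls held. Of 16 Notch genes, 1 rose and 4 fell (1 and 8, median -1.01); NOTCH1 fell from 4.83 and 5.69 to 1.27 and 0.99 FPKM (-1.94 log2, lost without P-IWP2 replicate 6, at -1.83) and the abundant target HES1 was not called (63.9 and 70.8 and 49.9 and 58.7 FPKM).

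Adhesion genes moved both ways. Of 36 integrin, laminin and focal adhesion genes, 7 rose and 5 fell (10 and 11 in the 6-library model, median 0.26, or -0.02 by total counts). LAMA1, a laminin chain of early basement membranes, rose from 8.85 and 9.54 to 24.7 and 24.9 FPKM (1.71 log2, SE 0.201, edgeR adjusted p = 0.00103, held). The integrin ITGA7, the laminin receptor of muscle, rose from 8.24 and 5.1 to 23.4 and 25.8 FPKM (2.15 log2), while ITGA8, an integrin of mesenchyme, fell from 8.31 and 9.25 to 0.02 and 0.07 FPKM (-7.33 log2), and ITGA11, a collagen receptor of fibroblasts, from 1.67 and 1.39 to 0.07 and 0.11 FPKM (-3.78 log2, held). ITGA7 lost its call without any 1 library (1.80 to 2.61) and ITGA8 without P-IWP2 replicate 5 (-6.59) or 6 (-8.88). Of 16 matrix proteases and inhibitors, 1 rose and 7 fell (2 and 8, median -0.71), with MMP2, the gelatinase of stromal cells, at 62 and 73.3 FPKM in NP-IWP2 and 2.87 and 3.35 FPKM in P-IWP2 libraries (-4.16 log2, SE 0.57, edgeR adjusted p = 0.00234, held).

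Of 27 cell cycle genes, 2 rose and 1 fell (2 and 4, median -0.05). The share that rose was near the 7.15% of all genes, and the share that fell was below their 9.95%. In the 6-library model both shares were below the 14.1% and 17.5% of all genes. MKI67 was at 6.87 and 7.23 FPKM in NP-IWP2 and 4.36 and 6.74 FPKM in P-IWP2 libraries, where TOP2A was at 18 and 17.5 and 14.5 and 24.3 FPKM, so that P-IWP2 replicate 6 exceeded replicate 5 in both. CDKN1A, an inhibitor of cyclin-dependent kinases, rose from 29.1 and 21.1 to 68.7 and 78.6 FPKM (1.82 log2, edgeR adjusted p = 0.0211) and CDKN1C, another, fell from 43.2 and 42 to 21.7 and 16.4 FPKM (-0.89 log2, edgeR adjusted p = 0.0157). CDKN1A lost its call without any 1 library (1.57 to 2.14), and CDKN1C kept it only without P-IWP2 replicate 5 (-1.04 to -0.76). Other abundant genes fell outside the lists, the iron store light chain FTL (639 and 596 to 220.5 and 249 FPKM, -1.12 log2, SE 0.176, edgeR adjusted p = 0.00417, held) and the immediate early gene FOS (308 and 383 to 107 and 78.6 FPKM, -1.62 log2, lost without any 1 library, -1.79 to -1.47). Of 7 tested neural genes, 3 fell (3 lower and 1 higher in the 6-library model, median -0.63, or -1.59 without P-IWP2 replicate 5); the one of any abundance was STMN2, a tubulin regulator, which went from 19.1 and 20.6 to 0.03 and 0 FPKM (-9.98 log2, -12.40 to -9.14 in the leave-outs, which all ended its call), and outside the list SYT4, a vesicle protein, had no count in P-IWP2 libraries against 10.6 and 22.7 FPKM, at least 713-fold lower (lost without NP-IWP2 replicate 2, P-IWP2 replicate 5 or P-IWP2 replicate 6, -13.59 to -12.62 fitted). Of 6 tested pluripotency genes, 2 fell and none rose (5 and 1, median -1.87), and TDGF1, which early cardiac mesoderm also uses, was at 9.5 and 10.5 and 24.3 and 25.8 FPKM (edgeR adjusted p = 0.322, and 2.62e-05 in the 6-library model).

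Whether the Day 16 difference was already that of Day 12 was tested as a difference of differences. In the 12-library model 358 genes were called (1.84%), 151 with a larger value on Day 16 and 207 with a smaller one. The count rested on the Day 12 libraries: it was 1624 without P-IWP2 replicate 5 of Day 12, 6072 without P-IWP2 replicate 6 of that day, and 4 and 3 without NP-IWP2 replicate 1 and 2 of that day. Among the Day 16 libraries, it was 104 and 24 without NP-IWP2 replicate 1 and 2, 191 and 18 without P-IWP2 replicate 5 and 6, and 103 and 102 without P-DF replicate 3 and 4, and without P-DF replicate 3 or 4 of Day 12 it was 219 or 223. HOPX showed the largest such difference among the 10 genes of smallest p. On Day 12 it was at 0.69 and 0.84 FPKM in NP-IWP2 and 0.12 and 0.21 FPKM in P-IWP2 libraries, where passaged libraries were the lower ones, and on Day 16 they were far the higher (difference of 6.45 log2, edgeR adjusted p = 0.00315). SLC2A12 was at 2.24 and 1.89 and 1.61 and 1.7 FPKM on Day 12, with the passaged libraries slightly lower, before its rise on Day 16 (3.39 log2, edgeR adjusted p = 0.00315). LRRN3, a leucine-rich membrane protein of neurons, was at 1.85 and 2.05 and 1.35 and 1.56 FPKM on Day 12 and at 4.23 and 6.2 and 0.07 and 0.03 FPKM on Day 16 (-5.99 log2, edgeR adjusted p = 0.00315). ID4 was higher in the passaged libraries on Day 12, 121 and 58.2 against 43.7 and 49.7 FPKM, and lower on Day 16 (-3.82 log2, edgeR adjusted p = 0.00624). With P-IWP2 replicate 5 of Day 12 left out these differences were 6.02, 3.24, -6.19 and -3.34 log2, and with replicate 6 left out 7.01, 3.55, -5.76 and -4.18 log2.

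**Figure D4:**
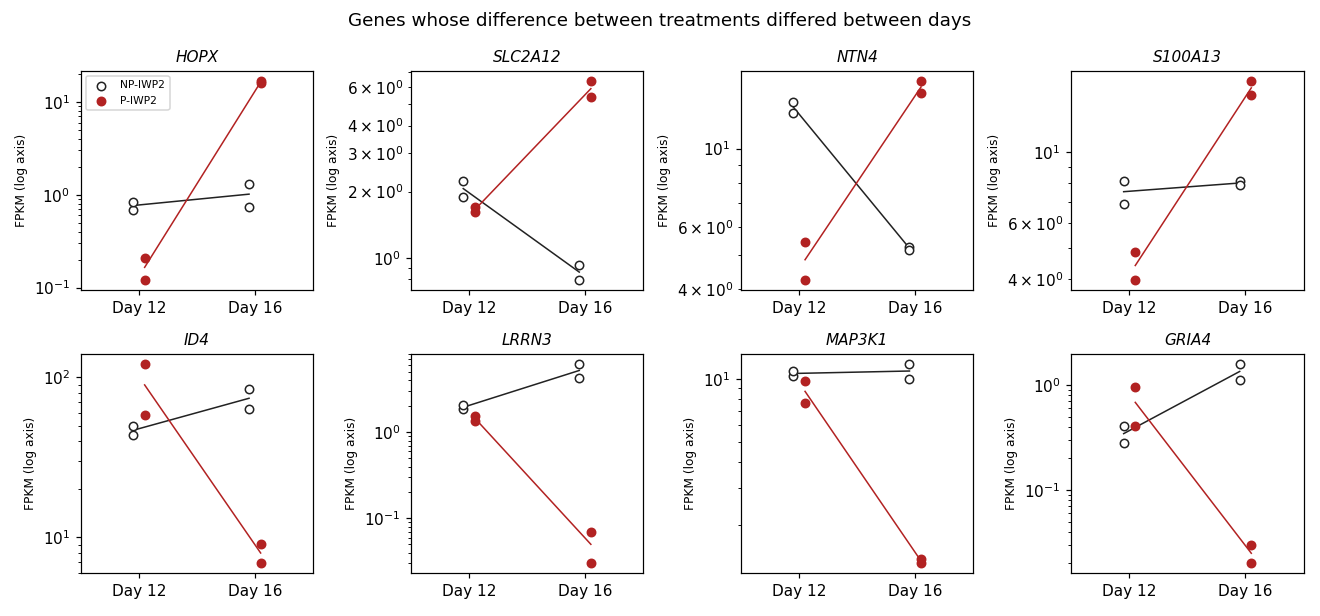
FPKM (log axis) of 8 genes with a called difference between days, on Day 12 and Day 16, in each library. Open circles are NP-IWP2 and filled circles P-IWP2 replicates, and lines join the group means. HOPX, SLC2A12, NTN4 and S100A13 lie higher in P-IWP2 libraries on Day 16 alone, and ID4, LRRN3, MAP3K1 and GRIA4 lie lower on Day 16, LRRN3 and MAP3K1 on Day 12 as well.

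Cells passaged without the inhibitor are set beside those with it, since the Day 16 static libraries serve both. In P-DF libraries MYL2 was at 1662 and 1360.3 FPKM, MYH7 at 2613 and 2340.2 FPKM, TNNI3 at 32.4 and 31.2 FPKM, AFP at 0.16 and 0.05 FPKM and COL3A1 at 5.23 and 3.28 FPKM, each nearer to the P-IWP2 than to the NP-IWP2 values given above. Between P-IWP2 and P-DF cells no gene passed in the 12-library model (0%, edgeR, adjusted p below 0.05), with 1567 genes at an unadjusted p below 0.05, and DESeq2 called 112. Without P-IWP2 replicate 5 or 6 of Day 12, 504 or 502 genes passed. The 6-library model called 385 (1.97%), 230 higher and 155 lower in P-IWP2. Of 156 genes named here, 22 passed in the 6-library model, 13 higher and 9 lower in P-IWP2 cells, and the 5 of smallest p follow. TDGF1 was at 6.69 and 9.48 FPKM in P-DF and 24.3 and 25.8 FPKM in P-IWP2 libraries (1.67 log2, edgeR adjusted p = 0.000952), and LAMA1 at 9.87 and 11.8 and 24.7 and 24.9 FPKM (1.24 log2, edgeR adjusted p = 0.00158). GJA1 was lower in P-IWP2 libraries, at 10.7 and 9.23 against 21.7 and 22.4 FPKM (-1.10 log2, edgeR adjusted p = 0.00158), and so were LUM, at 0.06 and 0.04 against 0.72 and 0.81 FPKM (-3.83 log2, edgeR adjusted p = 0.00159), and COL3A1 (-1.95 log2, edgeR adjusted p = 0.00289). For these 5 genes the P-IWP2 and P-DF libraries did not overlap.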

How the data were processed

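RNA-seq libraries were made from H1-derived cells of 3 treatments on Day 12 and Day 16, with 2 libraries per treatment and day. The authors trimmed reads with cutadapt 1.9.1, aligned them to hg38 with HISAT2 2.0.1 and counted them per gene with HTSeq 0.6.1, per the submitters' processing notes and the study's methods; whether counting used strand is not given in the sources used here. The labelled protocol names a SMRTbell library kit, made for long reads, whereas these tools are for short reads, and no platform is named for these libraries in the sources used here, so how well FPKM corrects for length is uncertain and levels of different genes are compared only with that limit. The deposited table holds raw counts per gene and FPKM, which the authors scaled by exonic length and total counts. The counts were tested here, and FPKM served only as levels. Groups came from the labelled treatment and day. Genes were filtered with filterByExpr, scaled by TMM and tested with edgeR 4.0.16 (glmQLFit and glmQLFTest, R 4.3.3) across all 12 libraries as 6 groups, with Benjamini-Hochberg adjustment over 19505 of 61806 genes and a threshold of 0.05. Every adjusted p given comes from this test or, where named, from the same test on the 6 Day 16 libraries. On simulated data for P-IWP2 against NP-IWP2 on Day 16 over 19505 genes, the 12-library model found 28 of 100 genes changed 2-fold and 72 of 100 changed 4-fold, and the 6-library model 65 and 94. Only these genes were changed, all drawn from genes above a count floor, whereas 3336 were called in the data. The shares found therefore do not measure the power reached in the data.

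Replicates were checked for identical counts and differed beyond counting error. Folds of genes without a count in P-IWP2 libraries are bounds from 3 counts over both libraries; intervals are exact (Clopper-Pearson, 95%), and bounds and intervals cover counting error only. Alternatives were DESeq2 1.42.0, size factors of DESeq2, total counts, no filter, fewer libraries, a replicate block for the difference between days, and leaving out each library. The members and the 39 gene lists were chosen with earlier results of these data known. Some genes are on more than 1 list: the lists have 775 entries and 741 genes. The genes named were, per list, up to 3 called higher, 3 called lower and 3 not called by highest mean FPKM, the 15 largest rises and falls, the 10 largest differences in FPKM in each direction and the 10 day differences of smallest p. Some genes that this rule takes in are not reported here. The following were named outside this rule, after their values were seen: ACTN2, ALB, ALDH1A2, AXIN2, BMP4, CASQ1, CMYA5, COL6A3, CRYAB, DCN, DES, GATA4, H19, HGF, HOXB6, ITGA11, ITGA7, LEF1, LIN28B, MEF2A, MKI67, MYPN, PDGFRA, PDGFRB, PECAM1, RYR2, SHOX2, SLC2A4, SRF, TGFBR1, TGFBR3, TNNI1, TNNT2, TOP2A, TTN, UQCRQ and WT1. The same replicate numbers recurred on both days, but correlations of their deviations (0.0754 for NP-IWP2, -0.0015 and -0.031 for the other treatments) did not pair them.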

Additional observations from a re-analysis of the deposited data

Results flagged for a closer look

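Of the genes named above, 32 had a difference between P-IWP2 and NP-IWP2 cells that itself differed between Day 16 and Day 12 (edgeR, 12 libraries), and for each the log2 difference between the days follows in parentheses. The value was larger on Day 16 for APOA1 (1.40), CAMK2D (1.59), CASQ1 (2.56), CASQ2 (3.92), CMYA5 (1.71), COL12A1 (4.69), FZD2 (1.64), HOPX (6.45), LAMA1 (1.83), MYL7 (2.77), NTN4 (3.26), S100A13 (2.08), SLC2A12 (3.39) and TNNI3 (3.44). It was smaller on Day 16 for ALB (-7.53), ALDH1A2 (-7.23), APOB (-7.04), CACNA1D (-2.38), CACNA1G (-5.14), COL6A3 (-7.76), DKK1 (-7.10), GRIA4 (-6.30), ID1 (-2.03), ID3 (-1.80), ID4 (-3.82), LRRN3 (-5.99), LUM (-3.74), MAP3K1 (-2.45), MYOM2 (-4.01), TBX5 (-2.10), TGFBR1 (-1.62) and TGFBR3 (-1.60). Leaving out a Day 12 library moved the count of such genes from 358 to between 3 and 6072. Most of the 32 lost their call without NP-IWP2 replicate 1 or 2 of Day 12, where fewer genes than that were called in all. Some of the 32 lost it without NP-IWP2 replicate 2 or P-IWP2 replicate 6 of Day 16. The P-IWP2 libraries of Day 12 disagreed with each other (SD of their log2 ratio 1.13), and without replicate 5 or 6 of them the 32 differences kept their direction. Without replicate 5, 4 of the values moved by over 1.5 times when taken as folds rather than as log2. On the log2 scale they went for COL6A3 to -4.66, DKK1 to -5.56, CACNA1G to -3.64 and ALB to -6.83. Without replicate 6, 6 values moved by over 1.5 times as folds, in log2 COL6A3 to -8.67, DKK1 to -7.82, CACNA1G to -5.86, COL12A1 to 5.63, MYL7 to 3.38 and CASQ1 to 3.17. The fitted value of APOA1 was further below 0 on Day 12 (-3.83 log2) than on Day 16 (-2.42), and those of LUM and TGFBR3 were below 0 on Day 12 (-7.65 and -3.15 log2) and further below 0 on Day 16.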

How the results depend on the processing

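Against 1395 higher and 1941 lower genes, total counts in place of TMM gave 733 and 3422, the 4 compared libraries alone gave 2211 higher, and the 6 Day 16 libraries alone gave 2755 and 3410. Leaving out 1 of the 12 libraries gave 216 to 3333 higher and 680 to 3780 lower. For the difference between days (358), DESeq2 gave 1425, total counts 550, no filter 2732, and the leave-outs 3 to 6072. For P-IWP2 against P-DF (0), DESeq2 gave 112, no filter 645, the 6 Day 16 libraries 385 and the leave-outs 0 to 504. With the replicate block the difference between days had 388 calls, 152 larger and 236 smaller; the numbers did not pair the libraries, and within Day 16 no paired fit was possible because the treatments share no number. The cause of these shifts was not tested.

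None of the 3336 genes called between P-IWP2 and NP-IWP2 turned direction in the 18 other settings run for that comparison. Of genes not called, total counts gave GATA4 -0.10, PROX1 -0.03 and SFRP1 -0.20. SRF was at 0.01 by DESeq2, its size factors or no filter. Ranges over the leave-outs crossed 0 for ACTA2 (-2.40 to 0.57), AXIN2 (-0.29 to 0.07), HES1 (-0.21 to 0.14), ID2 (-0.14 to 0.00), KRT18 (-0.07 to 0.64), KRT8 (-0.15 to 0.66), MKI67 (-0.48 to 0.27), SFRP1 (-0.03 to 0.18), SRF (-0.28 to 0.24), TFAM (-0.10 to 0.06) and TOP2A (-0.08 to 0.79). List medians turned by total counts for atrial (-0.09), PGC-1, PPAR and ERR (-0.02), cholesterol (-0.10), ATF4 (-0.15) and integrin (-0.02) genes, and their leave-out ranges crossed 0 for atrial (-0.01 to 0.43), smooth muscle (-0.09 to 0.86), cell cycle (-0.19 to 0.27), cholesterol (-0.08 to 0.39) and ATF4 (-0.06 to 0.23) genes. With 2 libraries per group, 2-fold changes may have gone undetected, as many did in the simulation.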
